A study of Homo sapiens with 6 samples.

Results

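FOXA1 and 8 transcription factors that work beside it were followed through a FOXA1 knockdown in oral cancer cells. The genes were taken by symbol from the deposited expression table: FOXA1, FOXA2, GATA3, GATA6, GRHL2, TFAP2A, TFAP2C, ESR1 and NR2F2. They make 9 of the 61859 genes in the table, and all 9 were among the 18460 genes tested, whose normalized count averaged 10 or more across all 6 libraries. The cells were OSC19SSZR, a human oral squamous cell carcinoma line resistant to sulfasalazine, which inhibits the cystine transporter xCT. The FOXA1 siRNA group (n = 3) and the control siRNA group (n = 3) received their siRNA by lipid transfection, and total RNA was taken after 48 h. Both groups carry the resistance, and no sensitive parental cells were analysed here. The number of different siRNAs and their sequences are not given in the sources used here. Nothing in the labels says that replicates came from separate cultures, so p-values weigh a difference only against the spread among these libraries, which may be technical.

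FOXA1 is a pioneer factor: its forkhead domain can bind DNA that is packed into nucleosomes, after which other factors reach the same enhancers. In luminal breast cells it shares enhancers with GATA3, with the AP-2 proteins TFAP2A and TFAP2C, with the epithelial factor GRHL2 and with the estrogen receptor encoded by ESR1. NR2F2 encodes COUP-TFII, an orphan nuclear receptor, and FOXA2 and GATA6 are paralogs best known from endoderm. In stratified squamous epithelium, GATA3, the AP-2 proteins and the grainyhead factors take part in barrier formation and keratinocyte differentiation.

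Between 16510125 and 25732569 reads per library lay behind the values. Of the genes tested, 51.8% passed limma's test at an adjusted p of 0.05, 26.8% higher and 25.0% lower with FOXA1 siRNA, so being called was common in this comparison. The called share rose with level: 27.3% of genes averaging 10 to 50 normalized counts were called, and 77.3% of those averaging 3000 or more. Values are counts divided by the authors' size factors. With libraries scaled to equal totals instead, 37.6% of the called genes were higher, against 51.8% as reported. Of 10 squamous epithelial markers, all passed the filter, 4 rose and 2 fell. The largest rises were in SFN, at 8538 normalized counts on average with FOXA1 siRNA and 3877 with control siRNA, and KRT17, at 11743 and 5826. The falls were in TP63, at 3734 with FOXA1 siRNA and 4917 with control siRNA, and KRT5. KRT5 averaged 27947 normalized counts with FOXA1 siRNA and 31639 with control siRNA, while its usual partner KRT14 was at 16 to 77 in all 6 samples. The summed level of the 10 was 60398 to 63748 with FOXA1 siRNA and 54514 to 56910 with control siRNA. Of 14 markers of fibroblasts, leukocytes, endothelium and melanocytes, 4 passed the filter, 1 rose (PMEL) and 2 fell (CDH5 and COL1A1). Their summed level was 741 to 780 with FOXA1 siRNA and 888 to 922 with control siRNA. DCN and LUM had no reads in any library, which allows up to 3 reads in each, and PECAM1 had 0 reads with FOXA1 siRNA and 2 with control siRNA. All 6 samples were of the OSC19SSZR line, so reads of these markers need not come from other cell types. The part of other cell types in the results was not tested, and in bulk RNA fewer cells of a type and less RNA per cell cannot be told apart.

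Of the 9 factors, 5 fell (FOXA1, GATA3, TFAP2C, GRHL2 and NR2F2), 3 rose (GATA6, ESR1 and TFAP2A) and FOXA2 did not pass the test, beside 51.8% called over all genes tested. The changes of the partners were small beside that of FOXA1: their log2 fold changes lay between -0.58 and 0.80, against -2.79 for FOXA1, and the median of the 9 was -0.16, against 0.0039 over all genes tested. The 2 groups did not overlap for any of the 9, which held for 57.6% of all genes tested. The exact two-sided permutation test gave p = 0.1 for each factor, the smallest value that 3 samples against 3 allow.

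**Figure D1:**
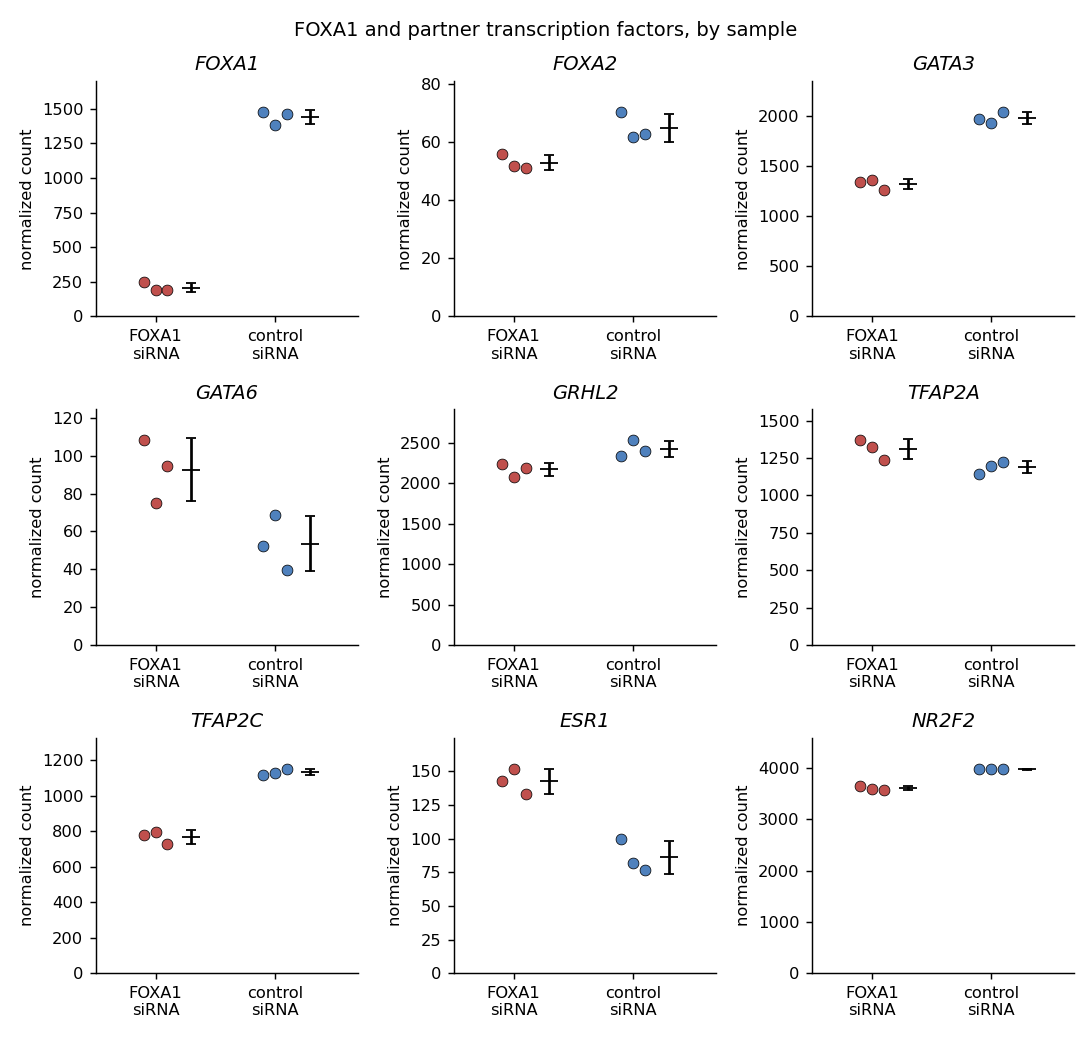
Normalized count (vertical axis, from 0, scaled per gene) of the 9 factors in each sample; points are samples, and the bar beside them is the mean with its SD (n = 3 per group). The groups are apart in every panel, by far the most for FOXA1, at 209 on average with FOXA1 siRNA and 1438 with control siRNA.

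FOXA1, on the minus strand of chromosome 14 (37589984 to 37596059 in GENCODE release 29 on GRCh38, ENSG00000129514), had 247, 192 and 189 normalized counts with FOXA1 siRNA, against 1477, 1378 and 1459 with control siRNA. Every library that received FOXA1 siRNA was far below every control library, and replicate 1 kept the most transcript. The mean was 209 ± 32.5 with FOXA1 siRNA and 1438 ± 52.8 with control siRNA (SD, n = 3), so 14.5% of the control level was left. On the log2 scale FOXA1 fell by 2.79 ± 0.09 (SE; limma, adjusted p = 3.32e-18), and 0.179% of the genes tested were as low or lower. It rested on 642 reads with FOXA1 siRNA and 4314 with control siRNA.

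FOXA2 (ENSG00000125798; chromosome 20, 22581005 to 22585455, minus strand) is a second forkhead pioneer, best known from endoderm, liver and lung. It had 55.7, 51.6 and 51.0 normalized counts with FOXA1 siRNA, against 70.4, 61.5 and 62.8 with control siRNA. All values with FOXA1 siRNA were below all control values, yet the gap was small for a gene with so few reads, 163 with FOXA1 siRNA and 195 with control siRNA. The log2 fold change of -0.29 ± 0.19 (SE; limma, adjusted p = 0.193) did not pass, and its 95% interval ran from -0.67 to 0.09. Plain limma, with neither trend nor robust fitting, gave the same change with an adjusted p of 0.0254, the 1 of 16 alternatives in which FOXA2 passed. FOXA3, the last of the family, had 1 read with FOXA1 siRNA and 7 with control siRNA.

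The balance within the family moved far, as it had to once FOXA1, the siRNA's own target, fell. Per kb of merged exons, FOXA2 made up 28.0% ± 1.96 of the FOXA family's transcript with FOXA1 siRNA and 6.44% ± 0.299 with control siRNA (SD, n = 3). The family's sum was 73.0 normalized counts per kb with FOXA1 siRNA and 387 with control siRNA. The log2 ratio of FOXA2 to FOXA1 within a library, which no library scaling can change apart from the added pseudocount, was -1.96 ± 0.147 with FOXA1 siRNA and -4.45 ± 0.0734 with control siRNA, a difference of 2.50 (exact two-sided permutation test, p = 0.1, the smallest possible). It stayed between 2.45 and 2.58 when any single library was left out. FOXA2 itself was not higher in any library with FOXA1 siRNA than in a control library. The shift in share and ratio thus restates the fall of FOXA1 and is no separate result.

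The start of FOXA1 lies head to head with TTC6, a gene read from the opposite strand, and the same stretch of DNA stands before both. Both genes were lower with FOXA1 siRNA, but FOXA1 is the siRNA's own target, and a part of the shared DNA in either fall was not tested. The sequence before the FOXA1 start is shown because it holds a word bound by forkhead proteins. It is the reference sequence of RefSeq's promoter table (GRCh38.p14, chr14:37595250-37595499, minus strand, 5′ to 3′), with the forkhead word in capitals, here read as the reverse complement of TGTTTGC.
FOXA1: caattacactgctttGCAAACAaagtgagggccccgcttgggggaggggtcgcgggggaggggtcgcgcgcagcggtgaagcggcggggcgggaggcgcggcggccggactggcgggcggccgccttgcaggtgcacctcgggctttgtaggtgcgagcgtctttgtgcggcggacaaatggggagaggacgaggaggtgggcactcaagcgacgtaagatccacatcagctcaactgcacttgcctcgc

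The word stood 235 bases before the first base of FOXA1 and 151 bases before that of TTC6 in that table. The window lies within the longer span that GENCODE gives FOXA1. TTC6 had 33.2, 31.1 and 34.4 normalized counts with FOXA1 siRNA, against 56.1, 79.7 and 74.3 with control siRNA. The groups were well apart, although the gene was low, with 101 reads with FOXA1 siRNA and 209 with control siRNA. TTC6 fell by 1.05 ± 0.21 on the log2 scale (SE; limma, adjusted p = 1.22e-04). In GENCODE release 29 the annotated genes FOXA1 and TTC6 overlap by 213 bases, and whether counting used the strand is not given in the sources used here, so reads from the overlap cannot be assigned. MIPOL1, 37622 bases from FOXA1 on its other side, had a log2 fold change of -0.19 ± 0.12 (SE; limma, adjusted p = 0.191) with overlapping groups, and PAX9, a transcription factor of oral epithelium listed among the neighbours, one of -0.20 ± 0.11 (adjusted p = 0.143).

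GATA3 (ENSG00000107485; chromosome 10, 8045378 to 8075203, plus strand), a zinc finger factor of luminal and squamous epithelium, fell by a moderate amount. It had 1344, 1357 and 1266 normalized counts with FOXA1 siRNA, against 1975, 1929 and 2043 with control siRNA. The highest library with FOXA1 siRNA was far below the lowest control. The mean was 1322 ± 49.5 with FOXA1 siRNA and 1982 ± 57.4 with control siRNA (SD, n = 3), so 66.7% of the control level remained, a log2 fold change of -0.58 ± 0.05 (SE; limma, adjusted p = 7.34e-10). Of the genes tested, 22.1% changed by as much or more in either direction. The fall passed in 16 of 16 alternatives, with log2 fold changes of -0.68 to -0.55.

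The first of the GATA3 promoter windows is shown as the other of the 2 searched windows of these factors that hold a forkhead word, again in capitals (GRCh38.p14, chr10:8045083-8045332, plus strand, 5′ to 3′). Here the word stood 138 bases before the annotated start.
GATA3: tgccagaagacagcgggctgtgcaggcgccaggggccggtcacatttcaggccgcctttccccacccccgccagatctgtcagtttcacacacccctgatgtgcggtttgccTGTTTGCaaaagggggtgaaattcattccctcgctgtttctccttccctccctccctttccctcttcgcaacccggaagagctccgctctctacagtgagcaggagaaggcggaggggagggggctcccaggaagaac

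Promoter windows from RefSeq's table, 250 bases before to 50 after a start, were searched for 6 of the 9 factors, 18 windows in all. FOXA2 and TFAP2C had none. Windows on chromosome 8, where GRHL2 lies, were left out of the search for the factors, so GRHL2 was not examined. A forkhead word was searched on both strands in 4 spellings. These were TGTTTAC as the first, TGTTTGC as the second, TATTTAC as the third and TATTTGC as the fourth. At least 1 of them was in 2 of the 18 windows, against 12.1% of all 35116 windows in the table. The GATA word AGATAA was in 0 of the 18, against 10.3% of all, and the AP-2 word GCCNNNGGC in 5 of the 18, against 23.2% of all. The windows of 1 gene are not independent of each other, since 6 belong to GATA3 and 6 to ESR1. A match is a description of the letters and not a bound site.

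GATA6 (ENSG00000141448; chromosome 18, 22169443 to 22202528, plus strand), a GATA factor of endoderm and gut, went the opposite way to GATA3 at a much lower level. It had 108, 75.1 and 94.9 normalized counts with FOXA1 siRNA, against 52.3, 68.6 and 39.8 with control siRNA. The groups were close: the lowest library with FOXA1 siRNA, replicate 2, was only a little above the highest control, also replicate 2. GATA6 rose by 0.80 ± 0.20 on the log2 scale (SE; 1.74-fold; limma, adjusted p = 0.00141), on 280 reads with FOXA1 siRNA and 161 with control siRNA. It passed in 16 of 16 alternatives, but its size ranged from 0.61 to 0.99 over them. In the authors' deposited table the log2 fold change was 0.78, with an adjusted p of 0.0109.

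GATA2, a paralog with roles in blood cells and in hormone-responsive epithelium, also rose. It averaged 291 ± 25.5 normalized counts with FOXA1 siRNA and 201 ± 13.9 with control siRNA (SD, n = 3; log2 fold change 0.53 ± 0.10 SE; limma, adjusted p = 8.26e-05), and its groups did not overlap. GATA3 remained the main GATA transcript. Per kb of merged exons its share of the family was 81.3% ± 1.86 with FOXA1 siRNA and 90.7% ± 1.09 with control siRNA, and the rest went to GATA2 and GATA6. The share of GATA2 was 13.8% ± 1.02 with FOXA1 siRNA and 7.09% ± 0.550 with control siRNA. The log2 ratio of GATA6 to GATA3 was -3.83 ± 0.284 with FOXA1 siRNA and -5.22 ± 0.428 with control siRNA, a difference of 1.38 (exact two-sided permutation test, p = 0.1). It was between 1.17 and 1.60 with any single library left out. GATA4 and GATA5 had no reads.

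GRHL2 (ENSG00000083307), a grainyhead factor that drives epithelial junction genes, was near its control level. It lies on the plus strand of chromosome 8 (101492432 to 101669726). It had 2242, 2085 and 2198 normalized counts with FOXA1 siRNA, against 2342, 2536 and 2403 with control siRNA. The groups were close but did not overlap. The fit put the change at -0.16 ± 0.05 on the log2 scale (SE; limma, adjusted p = 0.0127), and 71.0% of the genes tested changed by as much or more. The call was lost without FOXA1 siRNA replicate 2 (-0.13, adjusted p = 0.0688), without control siRNA replicate 2 (-0.13, adjusted p = 0.0964) and in limma with neither trend nor robust fitting (adjusted p = 0.0837). With equal library totals the change was -0.26.

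Its paralogs moved further, and in opposite directions. GRHL1, linked to desmosomal genes in mouse epidermis, had 356, 392 and 419 normalized counts with FOXA1 siRNA, against 226, 216 and 279 with control siRNA (log2 fold change 0.70 ± 0.10 SE; limma, adjusted p = 1.58e-06). GRHL3, known for its part in the epidermal barrier, had 98.6, 73.6 and 79.5 with FOXA1 siRNA, against 193, 208 and 165 with control siRNA (-1.16 ± 0.14 SE; limma, adjusted p = 9.38e-08). Neither gene's groups overlapped. The share of GRHL2 in the family, per kb of merged exons, was 83.6% ± 0.445 with FOXA1 siRNA and 83.7% ± 0.339 with control siRNA, so the 2 minor members traded places around a major member whose share stayed within the spread. GRHL1 made up 11.4% ± 1.07 with FOXA1 siRNA and 6.33% ± 0.999 with control siRNA, and GRHL3 made up 4.95% ± 0.641 with FOXA1 siRNA and 10.0% ± 0.991 with control siRNA.

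The 2 AP-2 factors, which bind the same GC-rich sites and are markers of squamous and luminal epithelium, did not move together. TFAP2C (ENSG00000087510; chromosome 20, 56629302 to 56639283, plus strand) had 778, 798 and 726 normalized counts with FOXA1 siRNA, against 1119, 1129 and 1153 with control siRNA. These groups were far apart, with 67.7% of the control level left. TFAP2C fell by 0.56 ± 0.06 on the log2 scale (SE; limma, adjusted p = 1.79e-08), much as GATA3 did, and 23.4% of the genes tested changed by as much or more. It passed in 16 of 16 alternatives, between -0.66 and -0.52.

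TFAP2A (ENSG00000137203; chromosome 6, 10393186 to 10419659, minus strand) had 1369, 1326 and 1240 normalized counts with FOXA1 siRNA, against 1143, 1196 and 1226 with control siRNA. The lowest library with FOXA1 siRNA and the highest control library were nearly level. Its rise of 0.14 ± 0.06 on the log2 scale (SE; limma, adjusted p = 0.0483) only just passed, and it passed in 4 of 16 alternatives. With equal library totals it was 0.04 (adjusted p = 0.574), with quantile normalization 0.07 (adjusted p = 0.311), and with edgeR on the recovered reads 0.13 (adjusted p = 0.0708). The authors' deposited table gave 0.14 with an adjusted p of 0.092.

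The ratio between the 2 is free of library scaling. The log2 ratio of TFAP2C to TFAP2A was -0.77 ± 0.0415 with FOXA1 siRNA and -0.07 ± 0.0324 with control siRNA, a difference of -0.70 (exact two-sided permutation test, p = 0.1) that stayed between -0.72 and -0.68 with any single library left out. Per kb of merged exons, TFAP2C made up 61.5% ± 0.622 of AP-2 transcript with FOXA1 siRNA and 72.3% ± 0.478 with control siRNA. Per kb of the longest transcript its share was 43.8% ± 0.675 with FOXA1 siRNA and 56.0% ± 0.567 with control siRNA, so which AP-2 gene leads with FOXA1 siRNA depends on the length used, while the share was lower with FOXA1 siRNA by either length. By merged exons the AP-2 sum was 415 normalized counts per kb with FOXA1 siRNA and 522 with control siRNA. TFAP2B, TFAP2D and TFAP2E were at or near 0.

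**Figure D2:**
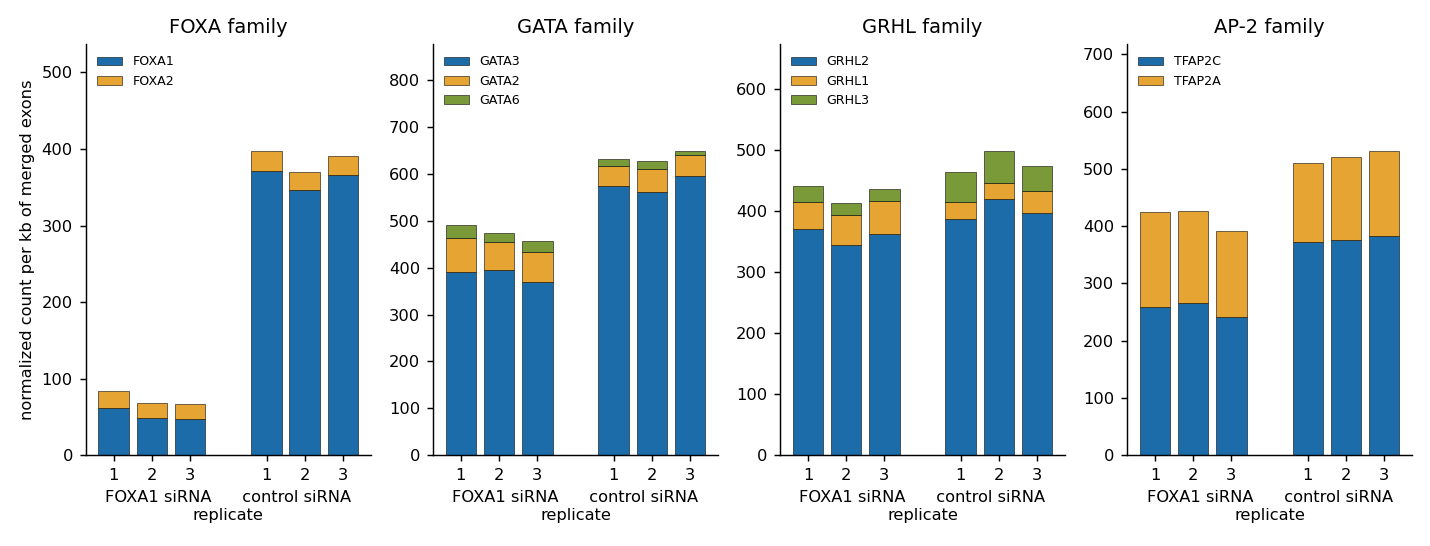
Stacked levels of the FOXA, GATA, GRHL and AP-2 families in each library, in normalized counts per kb of merged exons (vertical axis, from 0, scaled per family). FOXA2, whose own level did not rise, takes 28.0% of its bar on average with FOXA1 siRNA and 6.44% with control siRNA. GRHL2 has 83.6% with FOXA1 siRNA and 83.7% with control siRNA.

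ESR1 (ENSG00000091831; chromosome 6, 151656691 to 152129619, plus strand), the receptor whose binding in breast cells depends on FOXA1, rose. It had 143, 152 and 133 normalized counts with FOXA1 siRNA, against 99.9, 81.7 and 76.4 with control siRNA. All libraries with FOXA1 siRNA were well above all controls. The mean was 142 ± 9.47 with FOXA1 siRNA and 86.0 ± 12.3 with control siRNA (SD, n = 3), on 445 reads with FOXA1 siRNA and 259 with control siRNA. ESR1 rose by 0.73 ± 0.15 on the log2 scale (SE; 1.66-fold; limma, adjusted p = 1.24e-04), and it passed in 16 of 16 alternatives, between 0.63 and 0.87. Its level was low in both groups, at 10.3 normalized counts per kb of merged exons with FOXA1 siRNA and 6.21 with control siRNA. ESR2, the other estrogen receptor, had a log2 fold change of 0.48 ± 0.24 (SE; limma, adjusted p = 0.101) with overlapping groups. CCDC170, 35497 bases from ESR1 on chromosome 6, had 2 reads with FOXA1 siRNA and 0 with control siRNA.

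NR2F2 (ENSG00000185551; chromosome 15, 96325938 to 96340263, plus strand) was the most abundant of the 9 and moved little. It had 3650, 3596 and 3567 normalized counts with FOXA1 siRNA, against 3972, 3984 and 3969 with control siRNA. The replicates were tight in both groups, and the groups did not overlap. NR2F2 fell by 0.14 ± 0.05 on the log2 scale (SE; limma, adjusted p = 0.0117). The call was lost in limma with neither trend nor robust fitting (adjusted p = 0.0592), while equal library totals gave -0.24 and quantile normalization -0.26. NR2F6, the family's more abundant member per kb, rose by 0.25 ± 0.06 on the log2 scale (SE; limma, adjusted p = 0.00111), a call that did not survive quantile normalization (0.14, adjusted p = 0.0528) or limma with neither trend nor robust fitting (0.25, adjusted p = 0.0636). NR2F1 had a log2 fold change of 0.20 ± 0.18 (SE; limma, adjusted p = 0.384).

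Of 13 paralogs of the 9 factors, 6 passed the filter on low values, 3 rose (GRHL1, GATA2 and NR2F6), 1 fell (GRHL3) and 2 did not pass. That is 66.7% called of only 6 genes tested, beside 51.8% of all genes tested. Another 4 had a few reads and 3 had none.

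**Figure D3:**
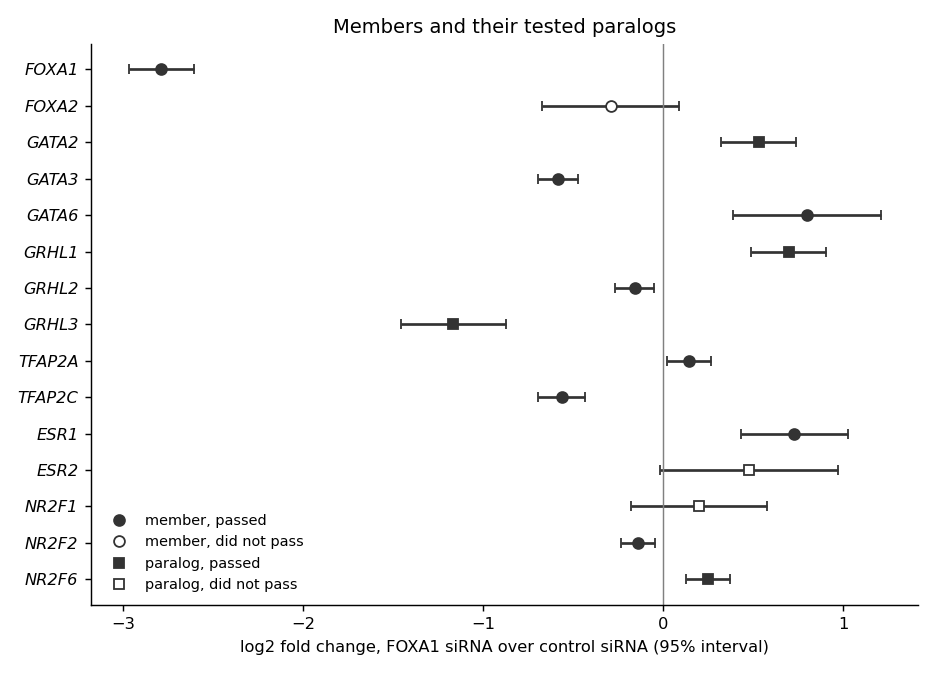
Log2 fold change of FOXA1 siRNA over control siRNA (horizontal axis) with its 95% interval from limma, for the 9 factors (circles) and their 6 tested paralogs (squares), grouped by family; filled symbols passed an adjusted p of 0.05. FOXA1 at -2.79 stands apart from the rest, which lie between -1.16 for GRHL3 and 0.80 for GATA6.

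Of the antisense genes that overlap these loci, 1 passed the test, beside 51.8% called over all genes tested. NR2F2-AS1 had 34.3, 24.3 and 33.2 normalized counts with FOXA1 siRNA, against 54.2, 39.3 and 55.4 with control siRNA (log2 fold change -0.68 ± 0.24 SE; limma, adjusted p = 0.0177). The call was lost without FOXA1 siRNA replicate 2 (-0.53, adjusted p = 0.0881), control siRNA replicate 1 (-0.61, adjusted p = 0.0737) or control siRNA replicate 3 (-0.59, adjusted p = 0.0782), and with quantile normalization (-0.48, adjusted p = 0.0936). GATA3-AS1 (-0.70, adjusted p = 0.109), GATA6-AS1 (0.84, adjusted p = 0.116), TFAP2A-AS1 (0.47, adjusted p = 0.0602) and TFAP2A-AS2 (0.21, adjusted p = 0.0716) did not pass limma's test. Their annotated overlap with the sense gene was 1424 bases for NR2F2-AS1, 3035 for GATA3-AS1, 436 for GATA6-AS1, 7107 for TFAP2A-AS1 and 3427 for TFAP2A-AS2. SYNE1 overlaps ESR1 by 7936 bases on the opposite strand, so reads from there cannot be assigned either. It was at -0.67 (limma, adjusted p = 0.051) and passed in 6 of 15 alternatives. LINC00261, beside FOXA2, had 0 reads with FOXA1 siRNA and 3 with control siRNA. NKX2-2, much farther from FOXA2 at 21511010 to 21514026 on chromosome 20, had no reads. Of the 12 neighbours, 9 passed the filter and 2 of them fell, which is 22.2% called beside 51.8% of all genes.

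Levels were then ordered per kb of merged exons. With FOXA1 siRNA the order was NR2F2 (558 normalized counts per kb), GATA3 (385), GRHL2 (359), TFAP2C (255), TFAP2A (158), FOXA1 (52.5), GATA6 (23.5), FOXA2 (20.3) and ESR1 (10.3). With control siRNA it was NR2F2 (615), GATA3 (577), GRHL2 (400.5), TFAP2C (377), FOXA1 (361), TFAP2A (144), FOXA2 (24.9), GATA6 (13.6) and ESR1 (6.21). FOXA1 thus stood 1 place lower with FOXA1 siRNA, below TFAP2A, and GATA6 and FOXA2 changed places. With FOXA1 siRNA the ranges of GATA3 and GRHL2 overlapped, as did those of GATA6 and FOXA2. With control siRNA no neighbours overlapped, but TFAP2C and FOXA1 nearly met (372.5 for the lowest TFAP2C library and 370.9 for the highest FOXA1 library). By the longest transcript in place of merged exons, FOXA1 was in place 6 with FOXA1 siRNA and 3 with control siRNA, TFAP2A and TFAP2C changed places with FOXA1 siRNA, as did FOXA2 and ESR1, so the middle and the bottom of the order depend on the length used.

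The genes whose pattern was most like that of FOXA1 were MAP2, a microtubule-associated protein (Pearson r = 0.9995), CSNK2A1, a casein kinase subunit (0.9995), IGFBP5, an IGF-binding protein (0.9995), PTPRA, a receptor phosphatase (0.9994), and DDIT4, a stress-induced inhibitor of mTORC1 (0.9994). The measure is the correlation of log2(normalized count + 1) over the 6 samples. With 2 separated groups a gene that differs strongly can reach a high value: 351 of 12114 genes considered had an r of at least 0.99. The sizes of change differed widely among the 5. IGFBP5 had a log2 fold change of -3.88, MAP2 of -2.58 and DDIT4 of -1.32, while CSNK2A1 was at -0.50 and PTPRA at -0.47.

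Around the factors, genes of 6 lists were counted, and each held both rises and falls. Some genes are in more than 1 list, so the called shares are not separate observations. GREB1, XBP1, MYB and NRIP1, for instance, are in both the estrogen response list and the list of FOXA1-dependent genes. The lists were not matched to all genes by level, so a called share above or below 51.8% is not by itself a trait of a list. The estrogen response list, genes linked to estrogen in breast cells, had 42 genes, of which 29 passed the filter, 9 rose, 12 fell and 8 did not pass. That is 72.4% called beside 51.8% of all genes, with a median log2 fold change of -0.02. CCND1, which encodes cyclin D1, had 2997, 3109 and 2794 normalized counts with FOXA1 siRNA, against 7950, 8035 and 8009 with control siRNA. This was a clear fall with tight replicates (log2 fold change -1.43 ± 0.05 SE; limma, adjusted p = 5.50e-19). DHRS3, a retinal reductase, also fell, by 0.97 ± 0.05 on the log2 scale (SE; limma, adjusted p = 1.10e-14). KCNK5, a potassium channel, rose by 1.22 ± 0.19 (SE; limma, adjusted p = 4.12e-06) and MYBL1, a MYB-family factor, by 0.98 ± 0.14 (SE; limma, adjusted p = 1.53e-06). PGR, the classical estrogen target, had no reads.

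Outside the naming rule and chosen after their values were seen, GREB1 and RET were also low. GREB1, a cofactor of the estrogen receptor, had 2.14, 3.04 and 1.19 normalized counts with FOXA1 siRNA, against 19.0, 16.1 and 25.1 with control siRNA. RET, a receptor tyrosine kinase, had 1.07, 6.83 and 4.74 with FOXA1 siRNA, against 39.9, 34.3 and 24.1 with control siRNA. Both were thus lower while ESR1 was higher, on few reads: 7 with FOXA1 siRNA and 60 with control siRNA for GREB1, and 14 with FOXA1 siRNA and 99 with control siRNA for RET. Limma put the log2 fold change at -2.78 ± 0.50 for GREB1 (SE; limma, adjusted p = 3.61e-05) and -2.87 ± 0.46 for RET (SE; limma, adjusted p = 7.31e-06). Both genes passed the filter on low values only through the control libraries, and both were picked for their values. Their p-values therefore add no support.

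Of 20 genes known to depend on FOXA1 in breast and prostate cells, 11 passed the filter, 4 rose, 4 fell and 3 did not pass, which is 72.7% called beside 51.8% of all genes. SPDEF, an ETS factor of secretory epithelium, had 2.14, 0 and 1.19 normalized counts with FOXA1 siRNA, against 169, 159 and 165 with control siRNA. It was nearly absent from the libraries with FOXA1 siRNA, with 3 reads with FOXA1 siRNA and 494 with control siRNA. By these pooled reads, scaled by the size factors, 0.589% of the control level was left (95% exact interval for counting error 0.121 to 1.73%). By mean normalized counts, as used for the factors, it was 0.674%. SPDEF passed the filter only through the control libraries. AGR2, a chaperone of mucus-producing cells, had 258, 236 and 267 with FOXA1 siRNA, against 1017, 862 and 1008 with control siRNA (log2 fold change -1.92 ± 0.08 SE; limma, adjusted p = 6.78e-17). The simple-epithelium keratins went up. KRT8 rose by 0.58 ± 0.04 on the log2 scale (SE; limma, adjusted p = 2.34e-12) and KRT18 by 0.50 ± 0.04 (SE; limma, adjusted p = 5.96e-11), although quantile normalization reduced these to 0.18 for KRT8 and 0.27 for KRT18.

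GRHL2's known epithelial targets split evenly: of 20 genes, 18 passed the filter, 7 rose, 8 fell and 3 did not pass, which is 83.3% called beside 51.8% of all genes. Most of those tested averaged above 1000 normalized counts. Of all genes at such levels, 67.6% were called at 1000 to 3000 and 77.3% at 3000 or more. ESRP1, an epithelial splicing factor, averaged 2670 ± 77.2 normalized counts with FOXA1 siRNA and 1270 ± 46.7 with control siRNA (SD, n = 3; log2 fold change 1.07 ± 0.05 SE; limma, adjusted p = 1.71e-15). MAL2, a protein of apical transport, rose by 0.88 ± 0.05 (SE; limma, adjusted p = 1.46e-14). In the other direction, ST14, which encodes the membrane protease matriptase, averaged 1107 ± 73.7 with FOXA1 siRNA and 2807 ± 59.5 with control siRNA (log2 fold change -1.34 ± 0.06 SE; limma, adjusted p = 5.04e-17). TJP3, a tight junction protein, fell by 0.91 ± 0.09 on the log2 scale (SE; limma, adjusted p = 4.56e-09). These genes were named as the largest called rises and falls of the list, so shifts larger than that of GRHL2 itself were built into the choice.

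Of 16 AP-2 targets, 14 passed the filter, 4 rose, 4 fell and 6 did not pass, which is 57.1% called beside 51.8% of all genes. ERBB2 (log2 fold change -0.04, adjusted p = 0.538) and EGFR (-0.09, adjusted p = 0.185), receptor genes with AP-2 sites in other cells and named after their values were seen, did not pass limma's test as reported, and passed in 2 (ERBB2) and 3 (EGFR) of 16 alternatives. FAS, a death receptor, rose by 0.70 ± 0.13 on the log2 scale (SE; limma, adjusted p = 3.72e-05), and BCL2, an inhibitor of apoptosis, by 0.64 ± 0.20 (SE; adjusted p = 0.00917), a call that was lost without control siRNA replicate 3 (0.44, adjusted p = 0.0781). MUC1, an apical mucin, fell by 0.87 ± 0.20 (SE; limma, adjusted p = 7.21e-04) and ERBB3, a partner of ERBB2, by 0.31 ± 0.07 (SE; adjusted p = 2.77e-04).

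Coregulators that work with these factors included 5 members of the Groucho family, TLE1 to TLE5, which did not move together. Of 35 genes, all passed the filter, 11 rose, 6 fell and 18 did not pass, which is 48.6% called beside 51.8% of all genes. TLE5 averaged 2681 ± 211 normalized counts with FOXA1 siRNA and 4634 ± 140 with control siRNA (log2 fold change -0.79 ± 0.05 SE; limma, adjusted p = 9.36e-13), and TLE4 was at -0.68 ± 0.09 (SE; adjusted p = 2.48e-07). Of the rest, named after their values were seen, TLE2 fell by 0.45 ± 0.09 on the log2 scale (SE; limma, adjusted p = 2.08e-04), TLE3 rose by 0.23 ± 0.06 (SE; adjusted p = 0.00264) and TLE1 did not pass (0.17 ± 0.08 SE; adjusted p = 0.0739). With equal library totals TLE3 was at 0.13 (adjusted p = 0.0736). PELP1, a nuclear receptor coactivator, rose by 0.39 ± 0.05 (SE; limma, adjusted p = 2.16e-07) and HDAC3, the deacetylase of the NCOR complex, by 0.38 ± 0.05 (SE; limma, adjusted p = 5.40e-07). CITED1, a coactivator of the CITED family chosen after its values were seen, had 24.7, 32.6 and 41.5 normalized counts with FOXA1 siRNA, against 3.80, 7.06 and 1.05 with control siRNA (log2 fold change 2.95 ± 0.46 SE; limma, adjusted p = 5.29e-06). CITED1 passed the filter only through the libraries with FOXA1 siRNA, so its p-value adds no support.

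Among the other nuclear receptors most did not move beyond the test's threshold. Of 43 genes, 25 passed the filter, 3 rose, 5 fell and 17 did not pass, which is 32% called beside 51.8% of all genes. Of the 25, 20 averaged at least 50 normalized counts. The rest were lower, where 27.3% of all genes averaging 10 to 50 were called. VDR, the vitamin D receptor, averaged 523 ± 21.6 normalized counts with FOXA1 siRNA and 392 ± 18.8 with control siRNA (SD, n = 3; log2 fold change 0.42 ± 0.08 SE; limma, adjusted p = 5.88e-05). RARG, a retinoic acid receptor, rose by 0.16 (limma, adjusted p = 0.0423), which passed in 6 of 16 alternatives. NR4A2, an orphan receptor, fell by 0.57 ± 0.10 on the log2 scale (SE; limma, adjusted p = 3.09e-05) and NR1H3, the oxysterol receptor LXR alpha, by 0.29 ± 0.09 (SE; limma, adjusted p = 0.00661).

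**Figure D4:**
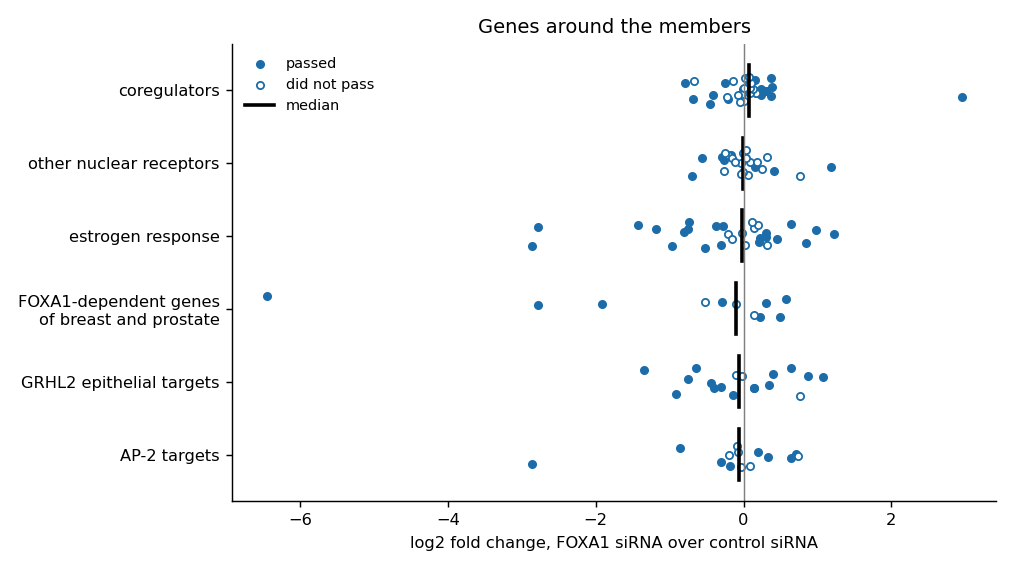
Log2 fold change of FOXA1 siRNA over control siRNA (horizontal axis) for every tested gene of 6 lists around the factors; filled points passed limma's adjusted p of 0.05, and a black line marks each list's median. All 6 medians lie between -0.10 and 0.07, and SPDEF is the point near -6.44.

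The partners' calls differed in how firmly they held. FOXA1, GATA3, GATA6, TFAP2C and ESR1 passed in 16 of 16 alternatives, NR2F2 in 15, GRHL2 in 13, TFAP2A in 4 and FOXA2 in 1, all at an adjusted p of 0.05. At a threshold of 0.01 the calls of GRHL2, NR2F2 and TFAP2A would be lost. No factor changed direction in any of the 16. The authors' deposited table, on the same libraries, gave log2 fold changes of -2.79 for FOXA1, -0.58 for GATA3, -0.56 for TFAP2C and 0.73 for ESR1.

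**Figure D5:**
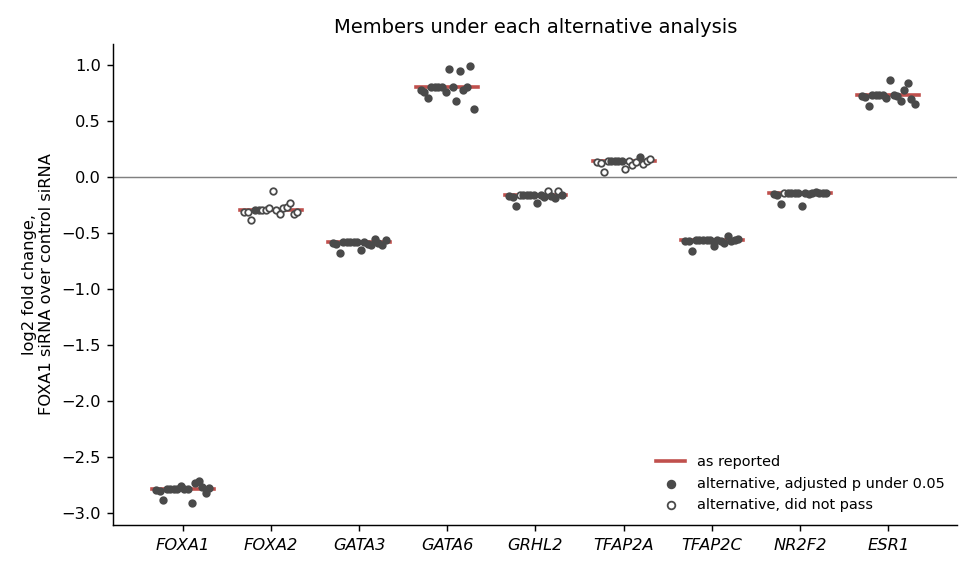
Log2 fold change of FOXA1 siRNA over control siRNA (vertical axis) of the 9 factors as reported (red line) and in each of 16 alternative analyses (points; filled where the adjusted p was under 0.05). All points of a gene stay on 1 side of 0; those of TFAP2A range from 0.04 to 0.18 and 4 of them are filled.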

How the data were processed

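Total RNA of 6 OSC19SSZR samples was sequenced from NEBNext Ultra RNA libraries, per the labels' protocols. The submitters' processing notes list 2 tools (HISAT2, DESeq2) and 2 builds (GRCh38, GRCm38) without saying what each was used for. The counting tool and its strand setting are not given in the sources used here. Per the file headers, the deposited values are a normalized signal for each gene in each sample, that is a count divided by a size factor. The authors' own comparison stands beside it, as a log2 fold change and its standard error, a test score, a p-value and an adjusted p-value. Of 61862 lines, 3 were left out (2 broken lines and 1 gene without values), and 27396 of 61859 genes had no reads. In each sample 100% of values were whole multiples of 1 read to within 0.01 read, so reads could be recovered. Size factors ran from 0.843 to 1.32. No library repeated another, since the chi-square per gene between replicates was 2.52 to 5.13.

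Tests ran in limma 3.58.1 (R 4.3.3; eBayes with trend and robust) on values log2-transformed after adding 1, for the 18460 genes averaging 10 or more, with Benjamini-Hochberg adjustment. This scale understates the fold changes of low genes. Ratios and single genes had exact two-sided permutation tests over samples. On simulated data for this comparison (18460 genes), limma called 59 of 67 genes changed 1.5-fold, 67 of 67 changed 2-fold and 66 of 66 changed 4-fold, with 17 unchanged genes called. The changed genes were few and were drawn from those averaging at least 50. The simulation thus does not cover lower genes or changes as small as those of GRHL2, NR2F2 and TFAP2A. The factors and lists were chosen with earlier results of these data known. Named genes were the 9 factors, up to 2 that rose and 2 that fell per list with a mean of at least 50, the locus neighbours and the 5 genes most like FOXA1. The other paralogs and GREB1, RET, CITED1, PGR, TLE1, TLE2, TLE3, ERBB2 and EGFR were named after their values were seen.

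The alternatives tried were edgeR 4.0.16 (quasi-likelihood) and DESeq2 1.42.0 on recovered reads, equal library totals, quantile normalization, pseudocounts of 0.5 and 5, no filter or a stricter one of 50, limma with neither trend nor robust fitting, a replicate block, each library left out and a threshold of 0.01. Promoter sequences came from RefSeq's table for GRCh38.p14, gene coordinates and lengths from GENCODE release 29 (GRCh38). Intervals for reads cover counting error only.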

Additional observations from a re-analysis of the deposited data

How the results depend on the processing

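FOXA1, GATA3, GATA6, TFAP2C and ESR1 kept direction and call in 16 of 16 alternatives, and no factor reversed. TFAP2A no longer passed with DESeq2 (0.13, adjusted p = 0.0951), edgeR's quasi-likelihood test (0.13, adjusted p = 0.0708), equal library totals (0.043, adjusted p = 0.574), limma without trend and robust (0.14, adjusted p = 0.124), no filter on low values (0.14, adjusted p = 0.094) and quantile normalization (0.074, adjusted p = 0.311). Leaving out 1 library gave TFAP2A 0.11 to 0.18, past the threshold in 1 of 6 such fits, and GRHL2 -0.18 to -0.13, past it in 4 of 6. Limma without trend and robust ended the calls of GRHL2 (-0.16, adjusted p = 0.0837) and NR2F2 (-0.14, adjusted p = 0.0592), and let FOXA2 pass (-0.29, adjusted p = 0.0254). At a threshold of 0.01, chosen for the factors after seeing the data, GRHL2 (-0.16, adjusted p = 0.0127), NR2F2 (-0.14, adjusted p = 0.0117) and TFAP2A (0.14, adjusted p = 0.0483) were lost. The cause was not tested.

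Samples with the same replicate number did not deviate together (correlations of -0.010, 0.011 and -0.011), so no pairing by number was seen. With so few libraries this does not settle whether samples were handled in pairs. With the replicate block 9332 genes were called, against 9571, and of the 9 factors TFAP2A lost its call (0.14, adjusted p = 0.0755). Over single libraries left out, 8560 to 9180 genes were called, and 9538 by edgeR and 8493 by DESeq2. Of the alternatives' values for 61 tested genes outside the 9 factors (locus neighbours and genes most like FOXA1 among them, added after seeing the data), 921 kept call and direction, 19 lost the call (in BCL2, NR2F2-AS1, NR2F6, NR3C1, RARG and TLE3) and 28, in 11 genes, gained one. All 169 alternative values for gene counts, lists and ratios stayed within 1.5 times the count or kept the ratio's direction. Depth limits the low genes: GATA6, ESR1 and FOXA2 rest on 161 to 445 reads per group.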
